A study of Mus musculus with 10 samples.

Results

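The constitutive proteasome genes were taken as the protein-coding genes of the GENCODE M21 annotation of the mouse whose symbol is Psma, Psmb, Psmc or Psmd followed by a digit, without the interferon-inducible subunits Psmb8, Psmb9 and Psmb10. The rule found 37 genes among 21951. It covers the 31 subunits of the 20S core and the 19S cap that all cells use, namely Psma1 to Psma7, Psmb1 to Psmb7, Psmc1 to Psmc6 and 11 Psmd genes, and the 3 chaperones Psmd5, Psmd9 and Psmd10, which help to assemble the base of the cap. It also covers Psma8 and Psmb11, core subunits restricted to testis and thymus, and Psmc3ip, which carries the prefix in its symbol but codes for a recombination factor and not for a subunit.

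The 26S proteasome degrades proteins tagged with ubiquitin. Its 20S core is a barrel of stacked rings, in which the α subunits (Psma) form the gate and the β subunits Psmb5, Psmb6 and Psmb7 cut the substrate, and its 19S cap recognizes the tagged protein (Psmd) and unfolds it with a ring of ATPases (Psmc). In cells that see IFNγ, Psmb8, Psmb9 and Psmb10 can replace the catalytic β subunits to give the immunoproteasome, whose peptides are loaded on MHC-I. The transcription factor Nfe2l1 drives the proteasome genes together through antioxidant response elements when degradation is impaired.

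Accessible chromatin was measured by ATAC-seq, in which a transposase inserts sequencing adapters where DNA is open, in Myc-CaP, a line of prostate cancer cells from a male FVB/NJ mouse. The 10 libraries form 5 groups of 2, all taken at 48 h from this 1 line: no treatment (Ctrl), oxaliplatin at 2 µM (Oxali), cisplatin at 2 µM (Cispl), IFNγ (1000 pg, with no volume in the labels) and both oxaliplatin at 2 µM and this IFNγ (Oxali + IFNγ). The authors pooled both libraries of a group before they called peaks, so each group is 1 list. No value below has a replicate, no difference could be set against the spread between libraries, and intervals cover counting error only. Among markers of luminal prostate cells, Foxa1 (at a level of 98.6), Hoxb13 (93.8), Krt8 (88.8) and Krt18 (3.54) had an interval at a start site in the control list, whereas Epcam and Cdh1 had none, and of 8 genes of blood, endothelial and stromal cells 2 had one, Pecam1 at 2.39 and Col1a1 at 49.9.

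A gene was called in a list when an interval overlapped 1 kb on either side of the start of one of its coding transcripts, and its level was the highest pileup of reads at a summit of such an interval over the genome background of the list. A level of 50 thus means 50 times as many reads as an average stretch of the genome held. The genome background, which scales with the number of reads, was 12.1 in Ctrl, 11.3 with Oxali, 13.8 with Cispl, 9.62 with IFNγ alone and 12.9 with Oxali + IFNγ, so that relative to Ctrl the depth was 79.3% for the IFNγ list and 113% for the Cispl list. Differences are given as log2 ratios of levels, and a gene was counted as higher or lower when its levels differed by at least 1.5-fold.

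The sequences just before the start site are shown for the members on which the results below turn. Psmb5 and Psmb6 code for the chymotrypsin-like and caspase-like catalytic subunits, Psmd9 for the chaperone with the lowest ratio under IFNγ, Psma1 for the α subunit with the lowest, and Psmb4 for the β subunit nearest to control. Each is the 150 bases upstream of the RefSeq start on GRCm38.p6, read 5′ to 3′ on the strand of the gene: Psmb5 at chr14:54617996-54618145 (minus strand), Psmb6 at chr11:70525207-70525356 (plus), Psmd9 at chr5:123228040-123228189 (plus), Psma1 at chr7:114276117-114276266 (minus) and Psmb4 at chr3:94886959-94887108 (minus). Capitals mark exact matches, on either strand, to the 8 motifs searched.
Psmb5: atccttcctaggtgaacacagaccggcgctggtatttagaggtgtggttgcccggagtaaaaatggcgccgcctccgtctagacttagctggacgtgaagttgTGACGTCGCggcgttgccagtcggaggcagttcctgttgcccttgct
Psmb6: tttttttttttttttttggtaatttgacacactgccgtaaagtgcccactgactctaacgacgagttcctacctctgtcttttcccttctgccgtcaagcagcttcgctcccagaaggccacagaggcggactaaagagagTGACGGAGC
Psmd9: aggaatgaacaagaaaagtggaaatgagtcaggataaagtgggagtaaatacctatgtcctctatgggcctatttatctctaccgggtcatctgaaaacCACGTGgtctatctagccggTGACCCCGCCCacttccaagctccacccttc
Psma1: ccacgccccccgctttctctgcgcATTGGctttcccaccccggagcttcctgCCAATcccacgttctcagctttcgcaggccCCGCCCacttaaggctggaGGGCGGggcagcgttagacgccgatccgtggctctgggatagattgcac
Psmb4: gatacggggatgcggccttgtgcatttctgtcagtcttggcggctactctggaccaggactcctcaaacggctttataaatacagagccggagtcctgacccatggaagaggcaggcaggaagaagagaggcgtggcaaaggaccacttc

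In Psmb5 the capitals are a match to TGACNNNGC, the core of the antioxidant response element, that begins 47 bases before the start. Psmb6 holds the same core 9 bases before its start. Psmd9 holds it 31 bases before the start, overlapping a GC box (GGGCGG, read on the other strand) that begins 26 bases before it, and an E-box (CACGTG) 51 bases before it. Psma1 holds a pair of CCAAT boxes and a pair of GC boxes and no match to TGACNNNGC, and Psmb4 holds none of the 8 motifs in this window.

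Nearly all constitutive proteasome genes were open in all groups. In each of the 5 lists the 35 members other than Psma8 and Psmb11 were called. Over all 21866 protein-coding genes with a coding start site, 58.4% were called in Ctrl, 60.8% with Oxali, 61.4% with Cispl, 58.0% with IFNγ alone and 62.0% with Oxali + IFNγ. Psma8 was called in 0 lists. Psmb11 was called in Oxali + IFNγ alone, at a level of 2.09 (95% exact Poisson interval, 1.38 to 3.04), from an interval whose summit lay 716 bp upstream of its start, in an intron. All values below are over the 35 members called in every list.

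In untreated cells, member levels ran from 43.4 (Psmb6) to 180 (Psma3), with a median of 105. The median over the 12766 genes called in Ctrl was 93.3, and 57.0% of those genes lay below the median of the members. By role, the medians were 155 for the 7 α subunits, 107 for the 6 ATPases, 125 for the 11 non-ATPase subunits of the cap and 64.7 for the 7 β subunits. The classes overlapped widely, with ranges of 57.0 to 180, 55.9 to 150, 64.9 to 143 and 43.4 to 174 in this order. Of the 3 catalytic β subunits, Psmb6 at 43.4 (39.8 to 47.3) and Psmb7 at 44.8 (41.1 to 48.7) were the lowest of all members. The third, Psmb5 at 64.7 (60.3 to 69.4), lay above Psmc1 (55.9), Psma2 (57.0), Psmb4 (60.2) and Psmd9 (61.2). The levels of Psmb6 and Psmb7 did not differ beyond counting error. At the other end Psma3 (180, 173 to 188), Psma5 (175, 167 to 182) and Psmb3 (174, 167 to 182) had overlapping intervals as well.

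**Figure D1:**
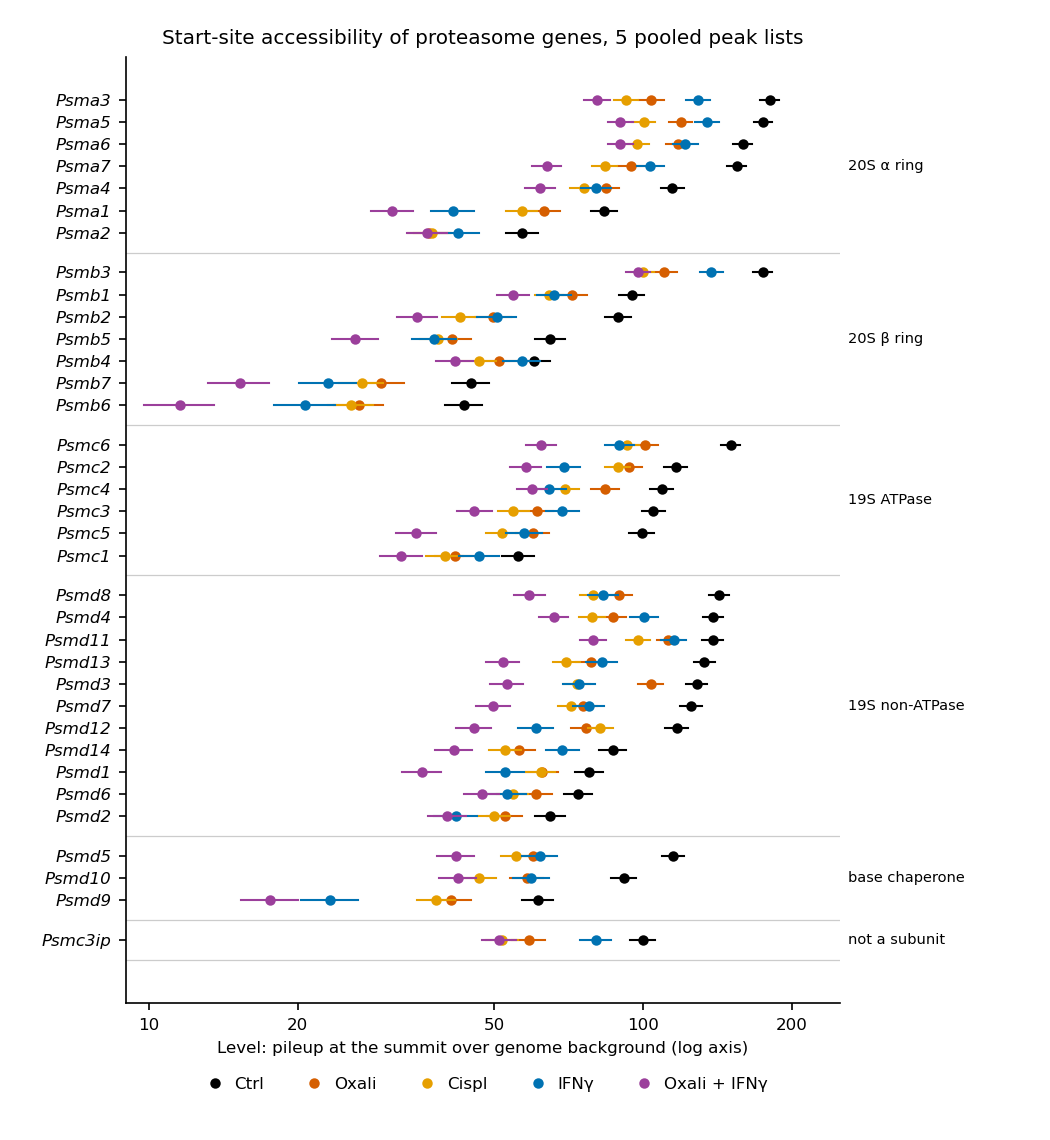
Level of each member (x axis, pileup at the summit over genome background, log axis) in the 5 pooled lists, by role and, within a role, by control level, with bars for the 95% Poisson interval of the pileup (counting error only). Ctrl is the highest and Oxali + IFNγ the lowest list for every one of the 35 members, from Psmb6 at 43.4 and 11.5 to Psma3 at 180 and 80.8.

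Every member had its highest level in Ctrl and its lowest in Oxali + IFNγ. Ctrl was the highest list for 82.6% and Oxali + IFNγ the lowest for 66.5% of the 12298 genes called in every list. The median level of the members was 63.1 with Oxali, 62.0 with Cispl, 66.0 with IFNγ alone and 47.1 with Oxali + IFNγ. The order of the members by level was much the same in all lists, with a Spearman rho with the control levels, across 35 genes that share their libraries, of 0.927 with Oxali, 0.925 with Cispl, 0.937 with IFNγ alone and 0.894 with Oxali + IFNγ. Psmb6 was the lowest of the 35 members in all 5 lists.

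The first comparisons ask how accessibility at these genes differed between each treatment and untreated cells. With Oxali all 35 members were below control, with a median log2 ratio of −0.61 (a ratio of 0.655), and 19 were lower by at least 1.5-fold, against 31.7% of all 12556 genes called in both lists. With Cispl the median was −0.73 and 25 members were lower, against 57.5% of all genes. With IFNγ the median was −0.62 and 19 were lower, against 44.3%. With Oxali + IFNγ the median was −1.13, a ratio of 0.458, and 34 were lower, against 69.5%. The exception was Psmb4, at −0.53. No member was higher by 1.5-fold in any of these comparisons, against 5.43% of all genes with Oxali, 4.82% with Cispl, 0.442% with IFNγ alone and 6.12% with Oxali + IFNγ. On the deposited fold, which divides a pileup by its local background, 0, 3, 2 and 13 members were lower by 1.5-fold in these 4 comparisons, against 4.1%, 13.0%, 6.63% and 27.8% of all genes, and 0 were higher, against 3.77%, 3.34%, 0.306% and 3.94%. The medians of the members on this measure were −0.22, −0.40, −0.25 and −0.50, and those of all genes −0.24, −0.37, −0.26 and −0.43, so that with Oxali and with IFNγ alone the members no longer lay below all genes.

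Over all genes called in both lists, members included, most were below control as well, 84.0% of them with Oxali, 87.4% with Cispl, 94.7% under IFNγ and 86.8% with the combination. The median over all genes was −0.45 with Oxali, −0.65 with Cispl, −0.55 with IFNγ alone and −0.88 with Oxali + IFNγ, so the members' medians lay below it by 0.16, 0.09, 0.07 and 0.25. Relative to the median of all genes, 22 of the 35 members were lower with Oxali, 23 with Cispl, 21 with IFNγ alone and 25 with both, and 0, 0, 1 and 5 of them by at least 1.5-fold, against 0.693%, 0.84%, 2.28% and 7.16% of all genes. None was higher by that fold relative to this median, against 12.4%, 13.8%, 4.5% and 19.7% of all genes. The 9296 genes whose mean level lay in the range of the members (25.6 to 124), a comparison chosen after the values were seen, had medians of −0.49, −0.69, −0.58 and −0.95. The 76 called ribosomal protein genes, another set that all cells use and also chosen after the fact, had −0.64, −0.83, −0.63 and −1.25. The medians of the members thus lay between those of these 2 sets in all 4 comparisons. The range is a loose match, as it held 9296 of the 12298 genes called in every list. Across 9686 of those genes, the log2 ratio correlated with the log2 mean level at an r of −0.589, −0.704, −0.404 and −0.666. Across 29 members r was −0.07, −0.25, 0.38 and 0.28.

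**Figure D2:**
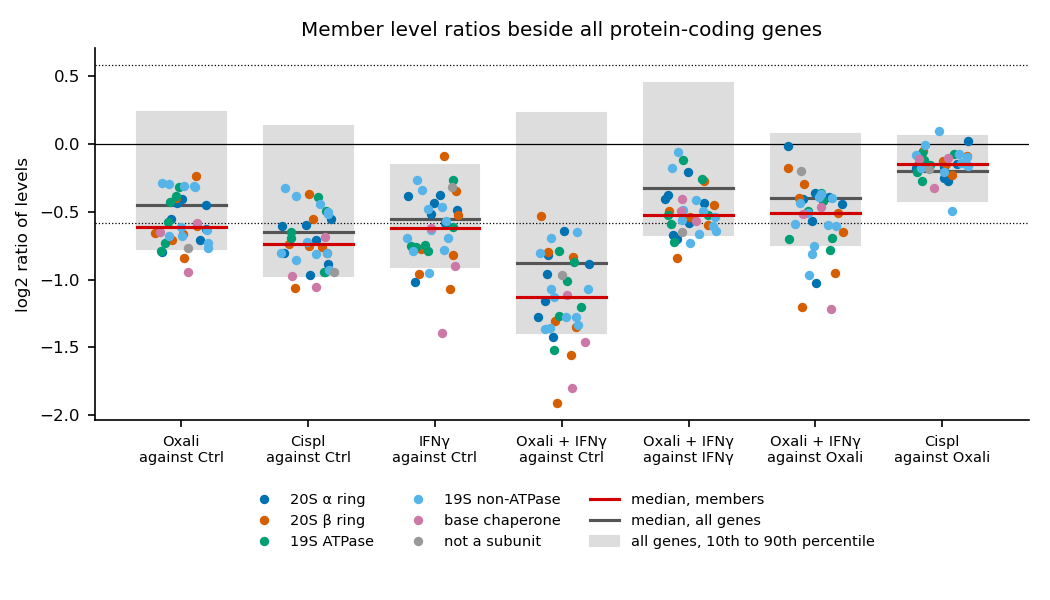
log2 ratio of levels (y axis) of the 35 members, 1 point per gene coloured by role, for 7 pairs of lists, with the medians of the members (red) and of all protein-coding genes (dark grey) and the 10th to 90th percentile of all genes (grey box), and 1.5-fold as dotted lines. The members are spread through much of the range of all genes, with medians of −0.62 against −0.55 with IFNγ alone and −1.13 against −0.88 with Oxali + IFNγ.

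The α ring, the part of the core that gates entry, had medians of −0.55 with Oxali, −0.71 with Cispl, −0.48 with IFNγ alone and −0.96 with Oxali + IFNγ. Under IFNγ 1 of its 7 genes (14.3%) was lower by 1.5-fold, against 44.3% of all genes. This was Psma1, which had levels of 83.4 in Ctrl, 63.1 with Oxali, 56.7 with Cispl, 41.2 with IFNγ alone and 31.1 with Oxali + IFNγ. Its IFNγ level was thus below those of both platinum drugs, with a log2 ratio to control of −1.02 (95% counting interval, −1.19 to −0.85). Its local background was lower too, 57.2 in Ctrl and 26.1 with IFNγ, and on the deposited fold its IFNγ value was not below that of Cispl. None of the 7 genes was lower by 1.5-fold under IFNγ on that fold, against 6.63% of all genes. Relative to the median of all genes none was either, against 2.28%. Psma3 showed another pattern, with 180, 104, 92.3, 129 and 80.8 in the same order. There the drugs gave the lower values and IFNγ the higher one.

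The β ring had medians of −0.66, −0.75, −0.78 and −1.31, the lowest of the 4 subunit classes with Oxali + IFNγ. Psmb6, the caspase-like subunit, had levels of 43.4 in Ctrl, 26.6 with Oxali, 25.6 with Cispl, 20.7 with IFNγ alone and 11.5 with Oxali + IFNγ. Its ratio to control with Oxali + IFNγ, −1.91 (−2.18 to −1.65), was the lowest of any member in any comparison and stayed at −1.03 relative to all genes. Its local background was lower too, 29.0 in Ctrl and 14.7 with Oxali + IFNγ. On the deposited fold its difference from control was thus smaller, and the ratios of Psmb7 and Psmd9 lay below its own. Psmb7, the trypsin-like subunit, ran in parallel at 44.8, 29.4, 27.0, 23.1 and 15.3. Psmb4, a structural subunit of the ring, differed least from control of all members with Oxali, IFNγ and Oxali + IFNγ, at 60.2 in Ctrl, 51.1 with Oxali, 46.6 with Cispl, 56.7 with IFNγ alone and 41.6 with Oxali + IFNγ. Its IFNγ level was not distinguishable from control by counting error (log2 ratio −0.09, −0.25 to 0.08), the only such case among the 35 members and 4 treatments. Psmb2, another structural subunit, had 89.0, 49.8, 42.6, 50.6 and 34.9, and the lowest ratio of all members with Cispl, −1.07 (−1.21 to −0.92).

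The ATPases, which unfold the substrate and push it into the core, had medians of −0.50, −0.67, −0.75 and −1.11. Psmc1 was their gene nearest to control under IFNγ, with a ratio of −0.26 and levels of 55.9 in Ctrl, 41.6 with Oxali, 39.7 with Cispl, 46.6 with IFNγ alone and 32.4 with Oxali + IFNγ. The other 5 of the 6 ATPase genes were lower than control by 1.5-fold there, against 44.3% of all genes. None of the 6 was on the deposited fold, against 6.63% of all genes, or relative to the median of all genes, against 2.28%. Psmc5 had the lowest ratio of this class with Oxali + IFNγ, −1.52.

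The non-ATPase subunits of the cap, among them the ubiquitin receptor Psmd4 and the deubiquitinase Psmd14, had medians of −0.61, −0.72, −0.64 and −1.13. Psmd6 and Psmd11, which are structural subunits of the lid, were among the 3 members nearest to control with Oxali, at ratios of −0.28 and −0.30. Psmd6 had levels of 73.9 in Ctrl, 60.7 with Oxali, 54.4 with Cispl, 53.1 with IFNγ alone and 47.1 with Oxali + IFNγ, and Psmd11 138, 112, 97.7, 115 and 79.3. The scaffolds of the base were near control under Cispl relative to the other members, where Psmd1 had the ratio nearest to 0 of all members, −0.33, and Psmd2 also one of the 3 nearest, −0.38. Psmd1 had levels of 77.8, 62.4, 62.0, 52.6 and 35.6 in the order of the lists above, and Psmd2 64.9, 52.5, 49.9, 41.8 and 40.1.

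The 3 base chaperones supplied several of the lowest ratios. Psmd9 had levels of 61.2 in Ctrl, 40.9 with Oxali, 38.1 with Cispl, 23.3 with IFNγ alone and 17.6 with Oxali + IFNγ, and its ratio under IFNγ, −1.39 (−1.62 to −1.18), was the lowest of the 35 members. Psmd5, at 115, 59.8, 55.4, 61.7 and 41.8, had the lowest ratio with Oxali, −0.94 (−1.08 to −0.81). Psmd10, at 91.4, 58.2, 46.6, 59.3 and 42.1, was among the 3 lowest with Cispl, at −0.97. Psmc3ip, which is no subunit, had ratios of −0.76, −0.95, −0.32 and −0.96, inside the range of the subunits.

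To ask what IFNγ adds in cells that receive Oxali, the Oxali + IFNγ list was compared with the Oxali list. All 35 members had ratios below 0, as did 86.9% of all genes, with a median of −0.50 against −0.40 over all genes, and 14 by at least 1.5-fold, against 23.5% of all genes. None was higher by that fold, against 1.17%. On the deposited fold 2 members were lower, against 2.45% of all genes, and relative to the median of all genes 3 were, against 1.78%. Psmd9 (−1.22), Psmb6 (−1.21) and Psma1 (−1.02) had the lowest ratios, and these were also the 3 lowest for IFNγ against Ctrl, a comparison that shares no list with this one. Across the 35 members both sets of ratios had a Pearson r of 0.821 and a Spearman rho of 0.827, and across 12298 genes called in every list 0.660 and 0.682. Genes of 1 list share its libraries and are not independent replicates. Psma2 was nearest to 0, at −0.01 (−0.21 to 0.18).

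**Figure D3:**
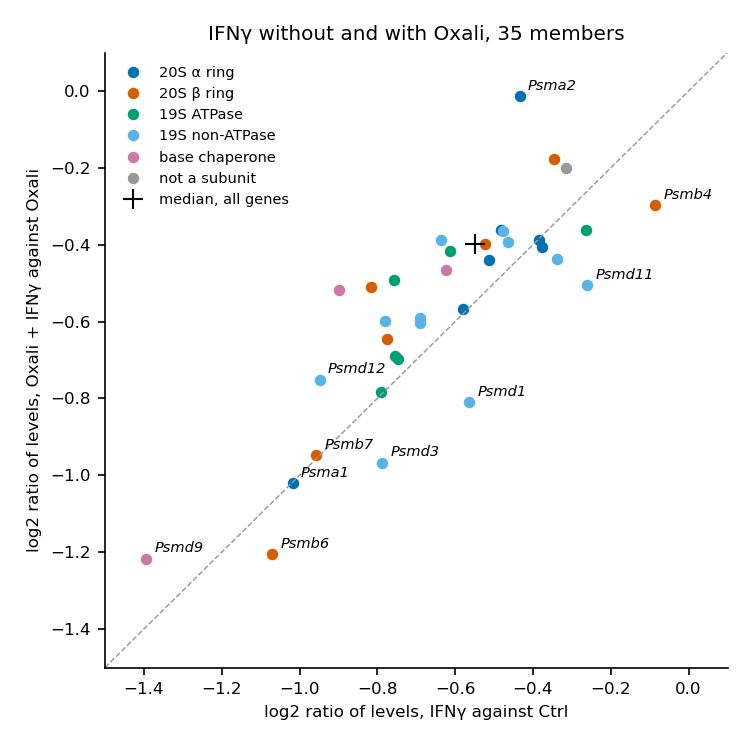
log2 ratio of levels with IFNγ in cells without Oxali (x axis, IFNγ against Ctrl) and with Oxali (y axis, Oxali + IFNγ against Oxali) for the 35 members, coloured by role, with the median of all genes as a cross and equal ratios as a dashed line. Psmd9, Psmb6 and Psma1 are the lowest on both axes, and Psmb4 is nearest to 0 on the x axis at −0.09.

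Adding Oxali to IFNγ gave a median of −0.52 against −0.32 over all genes, and 29 of the 35 members lay below the median of all genes. By 1.5-fold 11 were lower, against 17.8% of all genes, and none was higher, against 8.04%. On the deposited fold 0 members were lower, against 2.86% of all genes, and relative to the median of all genes 0 were, against 1.04%. Psmb6 was again lowest, at −0.84 (−1.16 to −0.53), and Psmd2 nearest to 0, at −0.06 (−0.25 to 0.13). The ratios with Oxali in cells without and with IFNγ, which share no list either, had an r of 0.611 across the members and 0.861 across all genes.

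Cisplatin and oxaliplatin, both platinum compounds that crosslink DNA and here given at the same dose of 2 µM and for the same 48 h, were compared directly as related drugs. They differ in that oxaliplatin carries a diaminocyclohexane carrier ligand and an oxalate leaving group in place of the ammines and chlorides of cisplatin. Their levels were close at the proteasome genes, with a median log2 ratio of Cispl to Oxali of −0.15 and a range from −0.49 (Psmd3) to 0.10 (Psmd12). No member differed by 1.5-fold, against 3.21% of all genes lower and 1.44% higher with Cispl. All genes had a median of −0.20, and 27 of the 35 members were above it. On the deposited fold this order turned, with medians of −0.15 for the members and −0.13 for all genes, and 1 member was lower by 1.5-fold, against 1.75% of all genes. On the level, 33 of the 35 members were below 0, against 85.9% of all genes. Psmd3 had 128 in Ctrl, 104 in Oxali and 73.5 in Cispl, and the interval of its ratio of the drugs was 0.652 to 0.773.

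The catalytic subunits were set beside their immunoproteasome counterparts, which are not members. Psmb8, the counterpart of Psmb5, had a far lower level, with 13.3 in Ctrl, 17.7 with Oxali, 14.3 with Cispl, 14.5 with IFNγ alone and 16.7 with Oxali + IFNγ. The counting interval of its ratio to control lay above 0 on the log2 scale with Oxali (0.42, 0.11 to 0.73) and Oxali + IFNγ (0.34, 0.03 to 0.64), and included 0 with Cispl and IFNγ. On the deposited fold its log2 ratios were 0.11 with Oxali, −0.05 with Cispl, −0.17 with IFNγ alone and −0.25 with Oxali + IFNγ. The direction of all but the first thus turned, as on the level the ratios with Cispl and IFNγ alone were 0.11 and 0.13. Psmb5 had 64.7, 41.0, 38.5, 37.8 and 26.2 in the same order. Psmb9, the counterpart of Psmb6, had 98.0, 64.1, 55.9, 65.7 and 42.9, with its strongest summit 201 bp from its start. Psmb10, the counterpart of Psmb7, was read from a summit 1366 bp downstream of its start, inside the gene, at 68.4, 51.9, 47.7, 44.5 and 39.4. From summits within 1 kb its levels were 21.01, 19.6, 23.0, 23.4 and 22.4, and the intervals of all 4 ratios to control included 0. On the level used for all other genes, Psmb9 and Psmb10 were thus below control in all treated lists, as the 3 catalytic members were. So were 84.0%, 87.4%, 94.7% and 86.8% of all genes with Oxali, Cispl, IFNγ alone and Oxali + IFNγ. In this order Psmb9 was at −0.61, −0.81, −0.58 and −1.19 and Psmb10 at −0.40, −0.52, −0.62 and −0.79. The medians over all genes were −0.45, −0.65, −0.55 and −0.88. On this level Psmb8 was above control or within counting error of it.

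**Figure D4:**
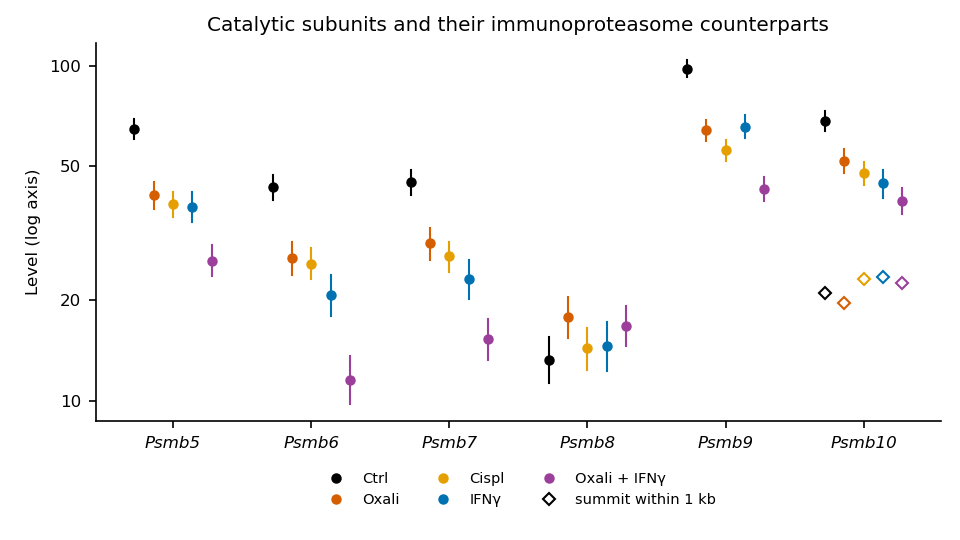
Level (y axis, log axis) of the catalytic subunits Psmb5, Psmb6 and Psmb7 and of Psmb8, Psmb9 and Psmb10 in the 5 pooled lists, with 95% Poisson intervals as bars, and open diamonds for Psmb10 from summits within 1 kb of its start. Psmb8 runs from 13.3 in Ctrl to 17.7 in Oxali, whereas Psmb6 runs from 43.4 to 26.6.

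Of 25 other genes of the pathway 24 were found by symbol, and all 24 were called in both lists of each comparison. Their medians were −0.51 with Oxali, −0.69 with Cispl, −0.56 with IFNγ alone and −1.08 with Oxali + IFNγ. By 1.5-fold 10, 17, 11 and 22 of them (41.7%, 70.8%, 45.8% and 91.7%) were lower, against 31.7%, 57.5%, 44.3% and 69.5% of all genes, with 0 higher, against 5.43%, 4.82%, 0.442% and 6.12%. These counts are on the level and were not made on the deposited fold for this set. On that fold, with Oxali + IFNγ, Psme3, Psmg1 and Psmg2 were within 1.5-fold of control, and Psme4, Psmg4 and Adrm1 were not. Nfe2l1 itself had levels of 242 in Ctrl, 144 with Oxali, 125 with Cispl, 183 with IFNγ alone and 115 with Oxali + IFNγ. The genes nearest to control with Oxali + IFNγ were Psme1, a subunit of the PA28 activator, at −0.37, and Ecpas, an adaptor of the proteasome, at −0.28. Psme2, the partner of Psme1 in PA28, was at −1.32. Its local background was lower too, 158 in Ctrl and 89.5 with Oxali + IFNγ, and on the deposited fold Psme2 was within 1.5-fold of control.

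The intervals sat on the start sites. In Ctrl the median distance of the strongest summit from the nearest start was −25 bp, that is upstream, and 30 of 35 summits lay within 100 bp, against 64.8% over all called genes. In Oxali + IFNγ 27 did, against 54.5%. Median widths ran from 1093 bp in IFNγ to 1154 bp in Oxali. The summit of a member moved by a median of 20 bp across the 5 lists, and by more than 100 bp in 3 members. In Psma2 it moved by 457 bp, in Psmb7 by 285 bp, from about 115 bp downstream of the start in the other 4 lists to 398 bp in Oxali + IFNγ, and in Psmd5 by 115 bp.

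**Figure D5:**
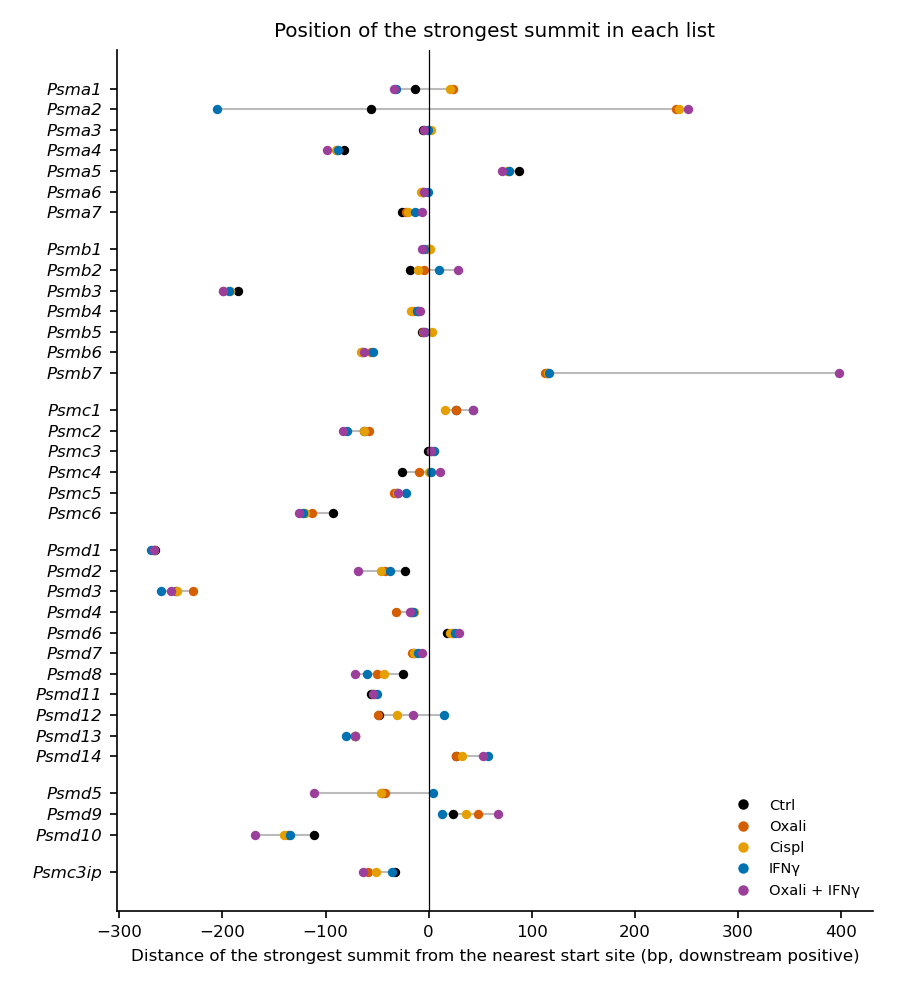
Distance of the strongest summit from the nearest start site (x axis, bp, positive downstream) for each member in the 5 lists, joined by a grey line. Summits lie within 50 bp of each other in 28 of 35 members, and Psma2 and Psmb7 have the longest lines, of 457 and 285 bp.

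A coding start of another gene on the opposite strand lay within 1 kb of 8 members, 22.9%, against 16.6% of genes called in every list. The partners were Mrpl32 (Psma2), AY074887 (Psma4), Ss18l1 (Psma7), Tbp (Psmb1), Dnajc2 (Psmc2), Ftsj3 (Psmc5), Atg4a (Psmd10) and Sirt3 (Psmd13), at 32 to 179 bp. In 7 of the 8, all but Tbp, the start of the partner lay in the same control region, and reads there cannot be assigned to one gene. The median ratio of these 8 members to control with Oxali + IFNγ was −1.06, and that of the other 27 was −1.16.

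Promoter sequences of RefSeq (GRCm38.p6), 250 bases before to 50 after a start, were found for 29 of the 35 called members. Psma8, Psmb1, Psmb2, Psmb7, Psmc3, Psmd3 and Psmd7 were not matched. The median GC content was 56.7%, against 60.7% over 9686 genes called in every list. The ETS site CCGGAAG was found in 10 members, 34.5%, against 18.8% of those genes and 12.3% of all 16522 promoters, and AAGATGG, a YY1 site, in 6, 20.7%, against 7.54% and 6.49%. The GC box GGGCGG was found in 62.1%, against 63.7% and 47.8%, and CCAAT in 41.4%, against 39.4% and 38.7%. The shares of GCATGCGC (nuclear respiratory factor site) and of CACGTG were 6.90% each, against 5.45% and 10.1% of the called genes, and TGACGTCA was found in 0 members, against 3.24%. All motifs were searched on both strands, and a match describes letters and not binding.

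The antioxidant response element core TGACNNNGC was found in 5 of the 29 members, 17.2%, against 14.4% of called genes and 13.2% of all promoters. They were Psmb5, Psmb6, Psmc6, Psmd9 and Psmd12, 3 of whose sequences are shown above. The searched sequence of Psma6 did not overlap its control interval, so the ratios were compared over the other 28 members, and over 8078 called genes whose sequence overlapped the control interval. Psmd13 was kept, since its sequence (chr7:140882144-140882443) overlapped its interval, though its level was read at the start at 140881968, outside that sequence. With IFNγ the log2 ratios of the 5 members to control were −0.78, −1.07, −0.75, −1.39 and −0.95, all below the median of the 28 members, −0.60. The median of the 5 was −0.95 and that of the other 23 was −0.51, against −0.60 and −0.57 for called genes with and without the core. With Oxali + IFNγ the medians were −1.36 and −1.01, against −1.01 and −0.95 for called genes, and for Oxali + IFNγ against Oxali −0.75 and −0.44, against −0.46 and −0.44. In the other comparisons the medians were −0.61 and −0.63 with Oxali, −0.69 and −0.72 with Cispl, −0.52 and −0.52 for Oxali + IFNγ against IFNγ, and −0.09 and −0.15 for Cispl against Oxali, where none of the 5 was below the median. The medians of the members differed by other motifs too. With IFNγ the 11 members with CCAAT had a median of −0.46 and the other 17 one of −0.75, and the 18 with a GC box had −0.69 and the other 10 −0.42, against −0.55 and −0.59 for CCAAT and −0.60 and −0.50 for the GC box over called genes. This grouping was examined after the ratios were known, for the 7 motifs found in any member and 7 comparisons, and carries no test.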

How the data were processed

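ATAC-seq peak lists of 5 groups, each of 2 libraries pooled by the authors, were analysed. Per the submitters' notes and methods, reads were trimmed, aligned to mm10 with Bowtie2 2.2.8 and filtered on mapping quality, duplicates and mitochondrial origin, and the authors called peaks with MACS2 2.1.0 without a control library. Each summit carries a deposited fold, the ratio of pileup to local background with 1 added to both, and a deposited −log10 p-value from a Poisson model of the pileup, besides its deposited −log10 q-value, a score that ranks summits. The deposited summit offset gave summit positions. No list has replicates, so no test was run and no SD is given.

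Pileup and background were recovered for every summit by solving both values for a whole-number pileup (100% within 0.01 of the −log10 p in all lists). A method test on simulated peaks was run first. The most common background of a list, proportional to its reads, scaled the levels. Start sites came from GENCODE M21 protein-coding transcripts on GRCm38, the assembly of mm10. Intervals on pileups are exact Poisson and those on ratios Clopper-Pearson, both at 95%. Lists end at a −log10 p of 2.00, and Cispl at 2.99. The named genes are members missing from a list, the 3 highest and 3 lowest by ratio to control in each of 4 comparisons, the highest and lowest by control level, and the catalytic subunits beside Psmb8, Psmb9 and Psmb10. Members, gene lists and motifs were chosen with earlier results of these data known. Part of the luminal marker list is not reported here. Alternatives were other start sites, windows, thresholds and measures of level. Python 3.11.15, numpy 2.4.6, pandas 2.3.3 and scipy 1.17.1 were used.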

Additional observations from a re-analysis of the deposited data

How the results depend on the processing

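The counts of called members, the medians and the counts past 1.5-fold kept their direction and stayed close to the reported values with the 5′ end of the gene alone, all transcripts, a 500 bp window, a q-value of at most 0.01, a −log10 p of at least 3 and the 31 core and cap subunits alone. So did the medians and the counts past 1.5-fold with summits inside the window, 1 merged region per gene and the pileup minus the local background, under which called members were not counted. In the order Oxali, Cispl, IFNγ and Oxali + IFNγ against Ctrl, Oxali + IFNγ against IFNγ and against Oxali, and Cispl against Oxali, other settings gave these values. On the deposited fold the 7 medians were −0.22, −0.40, −0.25, −0.50, −0.25, −0.25 and −0.15, against −0.24, −0.37, −0.26, −0.43, −0.18, −0.18 and −0.13 over all genes, with 0, 3, 2, 13, 0, 2 and 1 members lower by 1.5-fold, against 4.1%, 13.0%, 6.63%, 27.8%, 2.86%, 2.45% and 1.75% of all genes. With the median of all genes set to 0, the 7 medians were −0.158, −0.0857, −0.0726, −0.249, −0.204, −0.107 and 0.0522, with 0, 0, 1, 5, 0 and 3 members lower in the first 6, against 0.693%, 0.84%, 2.28%, 7.16%, 1.04% and 1.78% of all genes. There 10 of the 35 members lay above 0 for Oxali + IFNγ against Ctrl, Psmb4 (0.34), Psma2 (0.24) and Psmd6 (0.23) the most, as did Psmb10 (0.0825). With summits inside the window, Psmb10 lay above 0 with IFNγ (0.15) and Oxali + IFNγ (0.0923). With 2-fold as the limit, 0, 2, 3, 22, 0 and 3 members were lower in the first 6, against 1.09%, 8.26%, 5.58%, 39.4%, 0.384% and 1.49% of all genes, and with a limit of 5/4 the counts that moved by over 1.5 times were 31 (IFNγ), 29 and 31 (Oxali + IFNγ against IFNγ and against Oxali) and 1 (Cispl against Oxali), against 78.6%, 49.9%, 60.6% and 21.3%. Of 45 ratios of single genes, 2 left their counting interval with the 5′ end alone (where 43 had a value), 2 with summits inside the window, 35 on the deposited fold and 42 with the median of all genes at 0, beside those above that turned. The cause of these shifts was not tested beyond the scaling itself.

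No paired analysis was possible because both libraries of a group were pooled before peak calling, and for the same reason no replicate was left out. The IFNγ list is the shallowest, and for the depth of single libraries the paper gives only a lower bound. Differences between groups and differences between libraries in the share of reads in open chromatin cannot be told apart, since levels are scaled to the genome background and not to a spike-in.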
